A study of Mus musculus with 16 samples.

Results

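Transcripts of the cytosolic ribosomal proteins were followed in the right kidney of 5 normal male mice of 1 litter. The members were the genes whose single platform symbol begins with Rpl or Rps and a digit, or with Rplp, together with Rpsa; the 2 Rps6k kinase genes and names marked as pseudogenes were left out. This gave 49 genes on 58 probes. All 49 genes had at least 1 probe with values on 3 or more of the 4 arrays of every mouse, as did 55 of the 58 probes, out of 8005 named genes and 15715 probes tested. By role they were 27 proteins of the large ribosomal subunit, 1 protein of its stalk (Rplp2), 15 proteins of the small subunit and 5 paralogues (Rpl36al, Rpl39l, Rpl7l1, Rps27l and Rps4l). The last, Rps19bp1, met the rule by its symbol but encodes a protein that binds Rps19 and is no part of the ribosome. One probe per gene was used, the one measured on most arrays or, on a tie, the one with the lowest probe number. It had values on all 16 arrays for 39 genes and on at least 13 for every gene.

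The study asked how much transcript levels vary between normal kidneys. The kidney of each of the mice W1 to W4 was set against that of W5 on 4 two-colour cDNA arrays, 16 arrays in all, with the mouse in channel 1 on 2 of them and W5 in channel 1 on the other 2. All 5 animals were wild-type, untreated littermates of mixed C57BL/6 and 129Sv descent, aged 88 ± 2 days, with no mutation or treatment named in any group. One extract per kidney was hybridised repeatedly, so the tests ask whether these 5 extracts differ, and do not speak for mice in general.

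Every value is a log2 ratio against W5. An array named W4.2 is array 2 of W4. The sources used here do not say which channel is the numerator, so the sign does not tell which kidney held more transcript. The plus side is the sign of the deposited ratio on arrays with the mouse in channel 1, and the sign was turned on the other arrays. The range of a gene is its highest minus its lowest fitted value over the 5 kidneys, where W5 counts as 0. The SE of a fitted value uses a spread pooled over the arrays of all mice. It therefore does not show how far the arrays of that mouse lay apart. Because the files give ratios and no brightness, levels of different genes could not be compared and the level of kidney markers could not be checked. In whole kidney, fewer cells of a type and less RNA per cell cannot be told apart.

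Ribosomal proteins are built into the small subunit, which decodes the mRNA, and the large subunit, which joins amino acids. A ribosome holds a single copy of nearly every one of them, and their mRNAs are among the most abundant of the cell. In mammalian cells their synthesis is set largely at translation: their mRNAs begin with a C and a run of pyrimidines, the terminal oligopyrimidine motif, through which mTOR and the RNA-binding protein Larp1 act. Most have many processed pseudogenes and some have near-identical paralogues, so a cDNA probe may also bind such copies and the values of single genes are uncertain to that extent.

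The sequence around the annotated transcript start is printed for the members on which the results below turn, to show which carry such a run where RefSeq places the start. Each window holds 15 bases before the start and 15 from it on, read 5′ to 3′ on the strand of the gene, with the run in capitals. A run is a C followed by at least 4 bases that are C or T, beginning within 10 bases of the start on the strand of the gene. The windows are from RefSeq, build GRCm38.p6: Rpl37 at chr15:5116598-5116627 on the plus strand, Rps23 at chr13:90923107-90923136 on the plus strand, Rps25 at chr9:44407699-44407728 on the plus strand, Rps15 at chr10:80292416-80292445 on the plus strand, Rpsa at chr9:120127751-120127780 on the plus strand, Rps6 at chr4:86857353-86857382 on the minus strand, Rplp2 at chr7:141447636-141447665 on the plus strand, Rpl15 at chr14:18270972-18271001 on the minus strand, and Rpl39l at chr16:10170213-10170242 on the plus strand.
Rpl37: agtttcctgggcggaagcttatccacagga
Rps23: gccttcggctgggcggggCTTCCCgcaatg
Rps25: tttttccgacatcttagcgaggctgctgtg
Rps15: cccggcagagctcgcgataactgcgcaagc
Rpsa: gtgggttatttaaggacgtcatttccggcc
Rps6: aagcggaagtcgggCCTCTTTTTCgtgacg
Rplp2: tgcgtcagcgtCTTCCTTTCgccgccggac
Rpl15: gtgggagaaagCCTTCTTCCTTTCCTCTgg
Rpl39l: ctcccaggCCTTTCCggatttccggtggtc

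The run was longest in Rpl15, at 17 bases, among the 9 windows shown, and it was absent from the windows of Rpl37, Rps25, Rps15 and Rpsa. RefSeq promoters were matched for 41 of the 49 genes, with 48 annotated starts. A run was present at 25 of the 48 starts (52.1%), against 30.7% of the 32851 promoters in the table. The letters CCGGAA, the core of an ETS factor motif, were sought on either strand from 250 bases before the start to 50 after it. They were found at 24 of the 48 (50.0%), against 14.9% of all promoters. Annotated starts may lie some bases from the true ones, so a window with no run shows only that these letters are missing there.

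Of 20205 probes, between 16209 and 18406 had a value on an array (80.2% to 91.1%). W4.3 and W4.4 had the fewest. The mean over the named genes tested lay between -0.012 and 0.025 on each array, so the scale of the arrays as a whole was close to 0 throughout. The residual SD over members, after the mouse and channel effects were removed, ran from 0.073 on W3.1 to 0.19 on W2.3. This SD leaves out any offset that the members share on an array. Their median absolute residual, which keeps it, was highest on W4.2 at 0.17 and W4.4 at 0.15, and lowest on W3.1 at 0.053. Over all named genes the residual SD was highest on W4.4, at 0.22.

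The first comparison asked whether any ribosomal protein transcript differed among the 5 kidneys. None of the 49 genes was called by limma's moderated F test at an adjusted p under 0.05, where 4.00% of all probes were called. The smallest adjusted p was 0.143, for Rps25. At an unadjusted p under 0.05 there were 9 of 49 (18.4%), beside 17.9% of all probes. Of these 9, 6 were among the 15 small subunit proteins (Rps13, Rps15, Rps20, Rps23, Rps25 and Rpsa) and 3 among the 27 large subunit proteins (Rpl26, Rpl37 and Rpl8). The test among W1 to W4 alone also called none of the 49, where 0.700% of all probes were called, and its smallest adjusted p was 0.232 for Rpl37. At an unadjusted p under 0.05 it had 9 members, beside 11.1% of all probes. W5 against its littermates called none, where 0.350% of all probes were called, with 1 member at an unadjusted p under 0.05 (Rpl26) beside 13.7% of all probes.

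The spread of the members between kidneys was small in fold terms. Their median range was 0.27, or 1.21-fold, and the middle of the distribution ran from 0.20 to 0.31 between its quartiles. All named genes had a median range of 0.23, or 1.18-fold. A range holds array noise as well as differences between kidneys. The median SE of a fitted value of the members was 0.087 in each of W1 to W4. Small subunit proteins had a median range of 0.31, large subunit proteins 0.23 and paralogues 0.27. Only Rpl37 ranged over more than 1.5-fold, which 3.80% of all probes did, and it was not called. Array noise in the members was a little below that of named genes, with a median technical SD of 0.16 against 0.18. The median range was 0.20 for 59 mitochondrial ribosomal proteins, 0.20 for 45 translation initiation and elongation factors and 0.22 for 77 oxidative phosphorylation genes. In the 5-kidney test limma called 0, 0 and 2 genes of these groups, beside 4.00% of all probes.

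**Figure D1:**
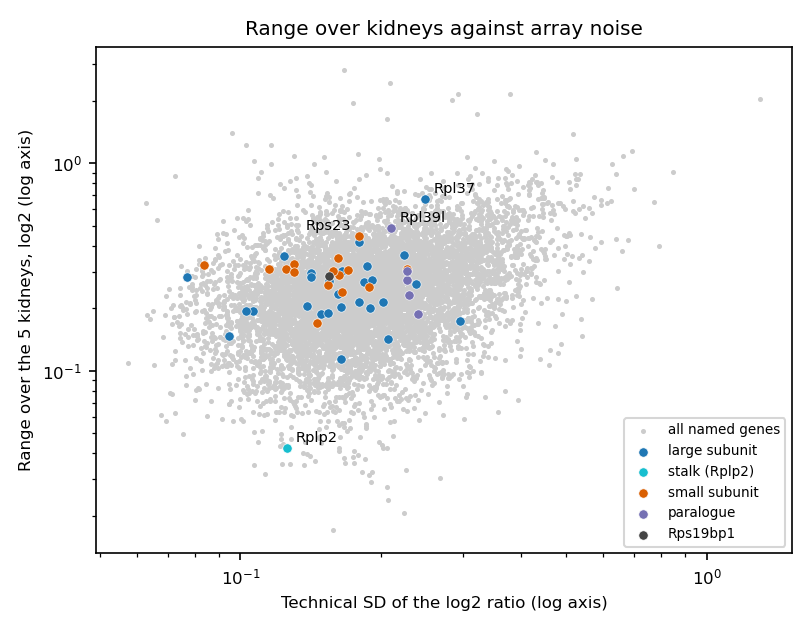
Range over the 5 kidneys (vertical, log2 ratio, log axis) against the technical SD of the fit (horizontal, log2 ratio, log axis) for the 49 members by role and for all 8005 named genes in grey. The members lie inside the cloud of named genes, with Rpl37 highest at 0.67 and Rplp2 lowest at 0.042.

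Among large subunit proteins, Rpl37, a small zinc-binding protein, had the widest range. Its 4 arrays read -0.083, -0.18, -0.0056 and -0.0056 in W1, and -0.064, -0.46, 0.046 and -0.31 in W2. W3 read 0.27, -0.073, 0.17 and 0.24. In W4 it read 0.80 on W4.1, -0.20 on W4.2 and 0.69 on W4.4, with no value on W4.3. Thus 2 of the W4 arrays lay above every other array, and W4.2 lay among those of W1 and W2. The fitted values in W1 to W4 were -0.068 ± 0.11 (SE, n = 4 arrays), -0.20 ± 0.11, 0.15 ± 0.11 and 0.47 ± 0.13 (n = 3), a range of 0.67 or 1.59-fold (limma, adjusted p = 0.151). Without W4.2 the range was 0.94 and limma called it (adjusted p = 0.00434). Over the arrays, the members most like Rpl37 were Rps20 (r = 0.85, 15 arrays), Rps21 (r = 0.83, 14 arrays) and Rpl36al (r = 0.82, 15 arrays); these arrays share W5, and the values are a description only.

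Rpl34 read 0.36, 0.092, 0.22 and 0.51 in W4, all on the plus side. It read -0.074, -0.019 and -0.085 in W1, and 0.079, 0.012 and -0.46 in W2. W3 gave 0.017, 0.092, -0.070 and 0.12. Its fitted value in W4 was 0.29 ± 0.092 and its range 0.42 (limma, adjusted p = 0.285). Rpl31, which sits by the mouth of the tunnel through which the new protein leaves, repeated the split among the W4 arrays, with 0.48 and 0.47 on W4.1 and W4.4 and -0.083 and -0.035 on the other two. Its range was 0.36 (limma, adjusted p = 0.578).

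Rpl8, which lies near the site of peptide bond formation, stood out in W1 rather than W4. It read -0.15, -0.27, 0.032 and -0.44 in W1, and 0.12, 0.12, 0.48 and -0.13 in W2. Values in W3 were 0.065, -0.017, 0.23 and 0.0011, and in W4 0.12, -0.075, 0.20 and -0.20. The arrays of W1 and W2 overlapped. Its fitted value was -0.21 ± 0.076 in W1 and 0.15 ± 0.076 in W2, and its range 0.36 was not called (limma, adjusted p = 0.267).

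Rpl26, which also binds the mRNA of the tumour suppressor Trp53, was the member with the lowest p for W5 against its littermates. Its arrays read -0.048, -0.27, -0.046 and -0.081 in W1, and 0.0094, -0.32, -0.17 and -0.18 in W2. W3 read -0.19, -0.29, -0.23 and -0.11. W4 read -0.069, 0.029, -0.30 and 0.14, and so overlapped the other mice and lay on both sides of W5. The mean over the 4 mice was -0.13 ± 0.066 (SD, n = 4 mice) and was not called (limma, adjusted p = 0.295). All 4 mice share W5, so this mean leaves out the spread of W5 itself.

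Rpl19 had the lowest technical SD of any member, 0.077. It read between -0.15 and -0.087 on the 4 arrays of W1 and between 0.046 and 0.29 on those of W4, which did not overlap. The fitted values were -0.12 ± 0.065 in W1 and 0.16 ± 0.065 in W4, and no pair of kidneys was called for it (limma, smallest adjusted p = 0.255). At the other end, Rpl41, the smallest ribosomal protein, had a technical SD of 0.30 and read from -0.42 on W1.1 to 0.61 on W2.3. Rpl15, Rpl36a and Rpl7a had ranges of 0.11, 0.14 and 0.15, the smallest after Rplp2.

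Rpl4, whose long loop lines the exit tunnel, was measured by a pair of probes that differed in call. The probe used here read 0.22, 0.039, 0.51 and -0.13 in W2, with a fitted value of 0.16 ± 0.084 and a range of 0.27 (limma, adjusted p = 0.525). The other probe read 0.65, 0.19, 0.64 and -0.0013 in W2, with a fitted value of 0.37 ± 0.077 and a range of 0.41 (limma, adjusted p = 0.0328), and W2 differed from W5 (limma, adjusted p = 0.0131). On both probes the higher readings of W2 were the 2 arrays with W2 in channel 1. It was the only one of the 55 member probes called in the 5-kidney test, which is 1.82% beside the 4.00% of all probes.

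Rplp2, an acidic protein of the stalk that recruits translation factors, had the smallest range, 0.042 or 1.03-fold. It read from -0.12 to 0.082 in W1 and from -0.19 to 0.080 in W2. In W3 it read from -0.20 to 0.10 and in W4 from -0.16 to 0.20, so the mice overlapped throughout. Its fitted values were -0.027, -0.042, -0.024 and -0.0069 in W1 to W4, each ± 0.076, all within 1 SE of W5 (limma, adjusted p = 0.984). Its other probe had a range of 0.16 (limma, adjusted p = 0.798).

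Among small subunit proteins, Rps23, which reaches into the decoding centre, had the widest range. It read -0.051, -0.28, 0.018 and -0.17 in W1, and 0.30, 0.014, 0.20 and 0.074 in W2. W3 read 0.056, -0.084, -0.14 and 0.13, and W4 0.35, 0.077, 0.18 and 0.70. Every array of W4 lay above every array of W1. The fitted values were -0.12 ± 0.092 in W1 and 0.33 ± 0.092 in W4, a range of 0.45 or 1.36-fold (limma, adjusted p = 0.160).

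Rps25, which some viral RNAs need to capture the ribosome, came nearest to a call between a pair of kidneys. It read -0.082, 0.052, -0.064 and 0.11 in W1, and -0.0048, 0.18, 0.096 and 0.21 in W2. W3 read 0.11, 0.050, -0.059 and 0.16. W4 read 0.20, 0.13, 0.19 and 0.67, all on the plus side and close together except W4.4. The fitted difference between W4 and W5 was 0.30 ± 0.078 (limma, adjusted p = 0.0579). It was called when only probes measured on all 16 arrays were tested (adjusted p = 0.0430), and when 1 probe per named gene was tested (adjusted p = 0.0406). Both left the difference at 0.30 and changed only the set of probes in the fit. Limma also called it without W4.2 (adjusted p = 0.0193). It was not called in the other alternatives, among them the fit without W4.4.

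Rps15 and Rpsa were lowest in W1. Rps15, of the head of the small subunit, read -0.27, -0.40, -0.32 and -0.18 in W1, with readings from -0.25 to 0.27 in the other mice, so that W2.3 overlapped W1. Its fitted value in W1 was -0.29 ± 0.086 and its range 0.35 (limma, adjusted p = 0.271). The difference between W1 and W5 was called under array weights (adjusted p = 0.0361) and with all arrays brought to a common spread (adjusted p = 0.0456). Rpsa, also known as a laminin-binding protein, had a technical SD of 0.084. It read -0.22, -0.17, -0.28 and -0.041 in W1, and 0.14, 0.010, 0.084 and 0.14 in W2. W3 read 0.15, 0.21, 0.12 and 0.11, above every array of W1, and W4 read -0.14, 0.076, -0.024 and -0.16. The fitted values were -0.18, 0.094, 0.15 and -0.062, each ± 0.067, and the range of 0.32 was not called (limma, adjusted p = 0.200).

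Rps2, which lies at the channel where mRNA enters, split by channel. In every mouse, both arrays with the mouse in channel 1 read above both of the others. With W1 in channel 1 it read 0.13 and 0.095, and with W5 in channel 1 it read -0.64 and -0.36. The range of its fitted values was 0.33 (limma, adjusted p = 0.338). Rps6, the substrate of the S6 kinases, read -0.45, -0.10, 0.086 and -0.066 in W1 and 0.31, -0.081, 0.19 and 0.27 in W4. W1.1 was its lowest array. The fitted values were -0.13 ± 0.089 in W1 and 0.17 ± 0.089 in W4, with a range of 0.31 (limma, adjusted p = 0.453).

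The paralogues had technical SDs of 0.21 to 0.24, inside the span of the other members, which ran from 0.077 for Rpl19 to 0.30 for Rpl41. All 5 paralogues lay above the upper quartile of the members, 0.19. Their median was 0.23, against 0.16 over all members. Rpl39l, a copy of Rpl39 known for its expression in testis, read 0.21, 0.22 and 0.38 in W1, and -0.11, 0.016 and -0.071 in W2. W3 read 0.015, 0.36, 0.072 and 0.25. In W4 it read -0.49 on W4.1 and -0.77 on W4.3, but 0.27 on W4.4, with no value on W4.2. Its fitted values were 0.21 ± 0.12 in W1 and -0.27 ± 0.12 in W4, a range of 0.49 (limma, adjusted p = 0.302). Without W4.4 the range was 0.79 and limma called it (adjusted p = 0.0303). The W4 value then rests on W4.1 and W4.3 alone, both with the mouse in channel 1. The channel term of Rpl39l was -0.17 ± 0.058 (limma, adjusted p = 0.0729).

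Rpl36al, an autosomal copy of the X-linked Rpl36a, read 0.72, -0.087, 0.00094 and 0.40 in W4, the same high arrays as Rpl37. Its fitted value there was 0.26 ± 0.11, and Rpl36a itself lay at -0.040 ± 0.10. Rpl7l1, a relative of Rpl7, had its largest values in W3 (0.21 ± 0.11) and W4 (0.27 ± 0.12). Rps27l, a relative of Rps27 that Trp53 induces, had a range of 0.19, and Rps4l, a copy of the X-linked Rps4x, had one of 0.23. None of the 5 was called by limma in the 5-kidney test, with adjusted p between 0.302 for Rpl39l and 0.781 for Rps27l. Rps19bp1 read from -0.34 to 0.066 in W1 and from -0.30 to 0.39 in W2, with a range of 0.29 (limma, adjusted p = 0.422).

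**Figure D2:**
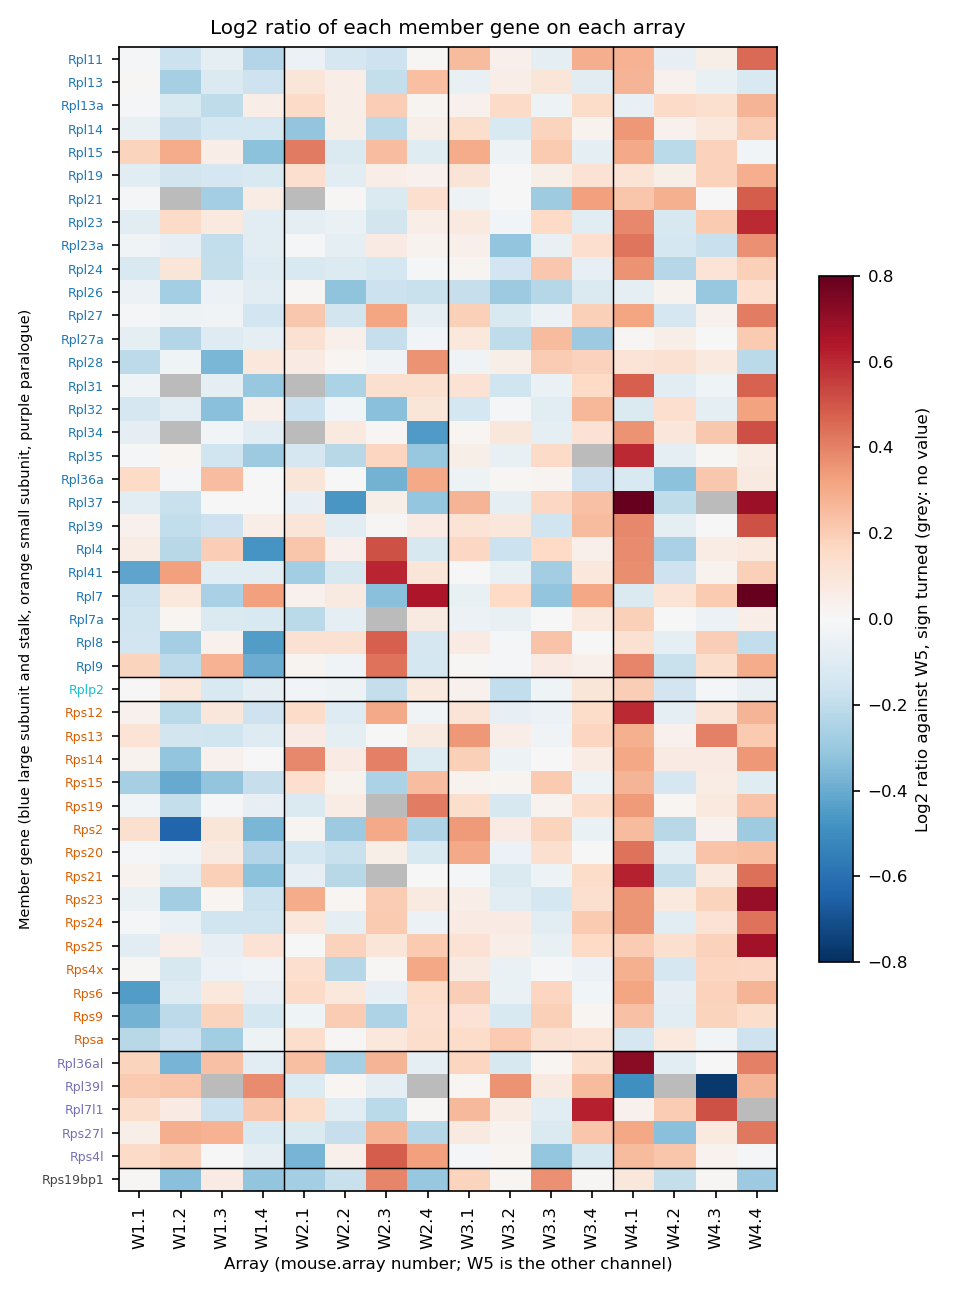
Log2 ratio against W5 of each of the 49 members (rows, by role) on each of the 16 arrays (columns, by mouse), red for the plus side, blue for the minus side and grey for no value. W4.1 and W4.4 are red for most members, with Rpl37 at 0.80 and 0.69, while W4.2 is not.

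The second comparison asked whether the members lay to one side as a group. Their means in W1 to W4 were -0.070, 0.013, 0.043 and 0.13. In the same order, 8, 30, 38 and 42 of the 49 lay on the plus side of W5, beside 46.6%, 49.9%, 49.7% and 51.3% of all probes. These counts share W5. Small subunit proteins had means of -0.10 in W1 and 0.16 in W4, and large subunit proteins -0.080 and 0.14. The member farthest on the minus side in W1 was Rps15 and the one farthest on the plus side in W4 was Rpl37. Between W1 and W4, where W5 cancels, the mean difference was -0.20.

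**Figure D3:**
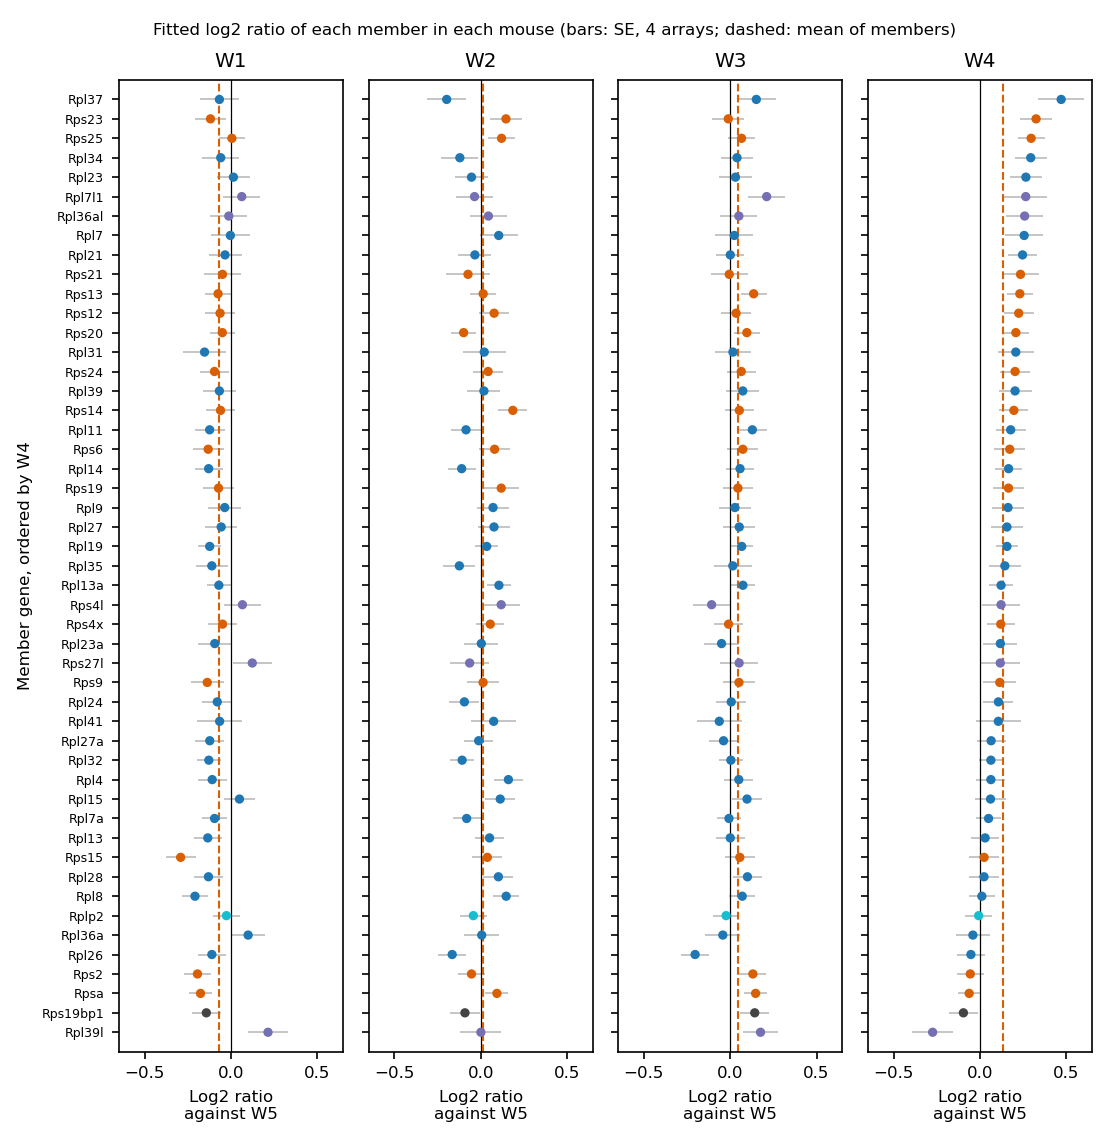
Fitted log2 ratio against W5 of each member in W1 to W4 (panels), ordered by W4, with a dashed line at the mean of the members. Bars are the SE of the fit, which uses a spread pooled over the arrays of all mice. Most points lie left of 0 in W1 and right of 0 in W4, where 42 of 49 are on the plus side.

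The arrays of W4 did not repeat this shift equally. The mean of all members was 0.26 on W4.1, -0.048 on W4.2, 0.069 on W4.3 and 0.24 on W4.4. The SD over these 4 arrays, 0.15, was larger than the W4 mean itself. In W1 the array means were -0.037, -0.098, -0.045 and -0.11 (SD 0.035), all below 0. W4.2 fell within the span of W1, and the other W4 arrays lay above it. By orientation, the W4 mean was 0.16 with the mouse in channel 1 and 0.095 with W5 in channel 1, and the W1 mean was -0.041 and -0.10. W2 arrays ran from -0.061 to 0.063 and W3 arrays from -0.027 to 0.092, on both sides of W5.

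**Figure D4:**
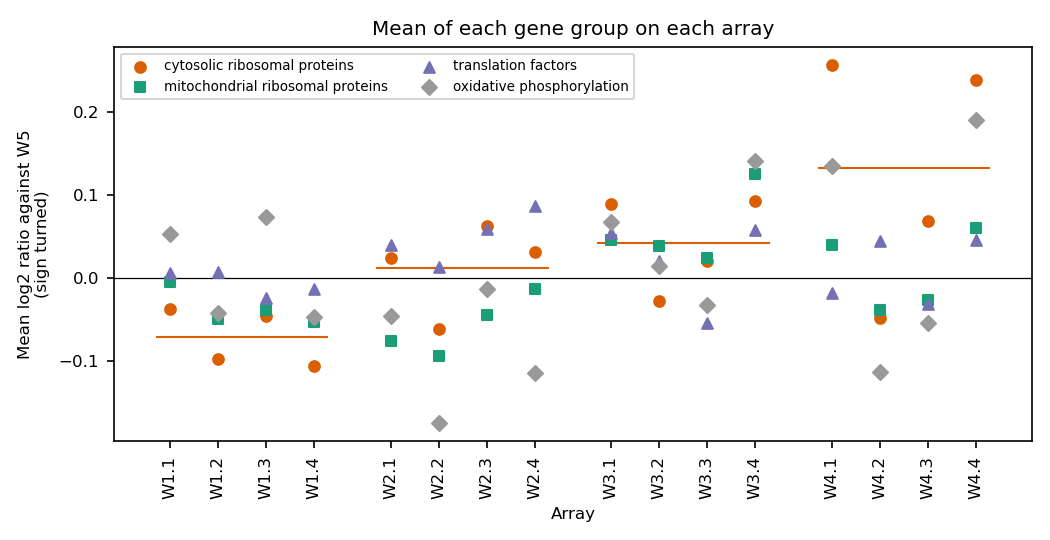
Mean log2 ratio against W5 of 49 cytosolic ribosomal proteins, 59 mitochondrial ribosomal proteins, 45 translation factors and 77 oxidative phosphorylation genes on each array, with a line at the mean of the cytosolic ribosomal proteins over the 4 arrays of a mouse. The cytosolic ribosomal proteins stand at 0.26 on W4.1 and 0.24 on W4.4, where the oxidative phosphorylation genes also stand above 0, and at -0.048 on W4.2.

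Other gene groups were measured on the same arrays. Oxidative phosphorylation genes had means of 0.13 on W4.1 and 0.19 on W4.4, and -0.11 and -0.054 on W4.2 and W4.3. Mitochondrial ribosomal proteins had 0.039, -0.039, -0.026 and 0.060 on W4.1 to W4.4, and translation factors -0.018, 0.045, -0.032 and 0.046. Of the cell type markers measured, 6 of 6 of endothelium lay on the plus side in W4, with a mean of 0.33 there, 0.029 in W1, 0.34 in W2 and -0.031 in W3. For leukocytes it was 6 of 9, with a mean of 0.080 in W4 and -0.049 in W1. All 4 adipocyte markers lay on the minus side, with means from -0.25 in W1 to -0.44 in W4. The part of these cell types in the shift of the members was not tested. Without W4.3 and W4.4, the arrays with the fewest values, the W4 mean of the members was 0.10.

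At single genes the shift appeared as follows. W4 differed from W5 at an unadjusted p under 0.05 for 18 of 49 members (36.7%), beside 15.5% of all probes. Of the 18, 17 lay on the plus side, where 8.72% of all probes had such a p. None of the 18 passed the adjustment, where 2.01% of all probes did. Between W1 and W4 it was 17 of 49 (34.7%), beside 7.92% of all probes. In 16 of the 17, W4 lay further to the plus side than W1, as did 4.66% of all probes with such a p, and again none passed the adjustment, where 0.235% of all probes did. W4 differed from W2 for 7 members (14.3%, beside 11.2%) and from W3 for 5 (10.2%, beside 9.53%). W1 differed at this p from W2 for 4 members (beside 8.76% of all probes), from W3 for 5 (7.71%) and from W5 for 4 (7.44%). W2 differed from W3 for 1 (8.74%) and from W5 for 1 (14.7%), and W3 from W5 for 2 (11.2%). Limma called 0 of 49 members in any of the 10 pairs. In the 8 pairs not yet given, the share of all probes called was 0.185%, 0.159% and 0.795% for W1 against W2, W3 and W5. It was 0.299%, 0.274% and 2.34% for W2 against W3, W4 and W5, and 0.280% and 0.592% for W3 against W4 and W5.

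The count for W4 against W5 moved with single arrays and with the orientation. Without W4.4 it was 6 of 49 (12.2%, beside 12.1% of all probes) and without W4.1 it was 9 (18.4%, beside 13.4%). Without W4.2 it was 27 (55.1%, beside 18.5%), and limma then called Rpl37, Rps25, Rpl23 and Rps23 between W4 and W5. The share of all probes called in this pair without W4.2 is not given here, so these calls are not read as an excess. In the 5-kidney test limma then called 671 of 15715 probes, in place of 629. Arrays with the mouse in channel 1 gave 12 (24.5%, beside 16.3%), and arrays with W5 in channel 1 gave 4 (8.16%, beside 14.3%). Without W4.3 and W4.4 it was also 4 (8.16%, beside 10.1%), and with array weights it was 10 (20.4%, beside 10.8%). The count for W1 against W4 was 6 without W4.1 (beside 7.66% of all probes), 8 without W4.4 (7.59%), 10 without W1.4 (6.86%), 11 without W1.1 (6.51%) and 25 without W4.2 (10.6%). Without W4.3 and W4.4 it was 7 (14.3%, beside 7.23%). It was 6 (12.2%, beside 7.84%) on arrays with the mouse in channel 1 and 1 (2.04%, beside 5.22%) on arrays with W5 in channel 1. Its mean difference lay between -0.26 and -0.15 in these fits.

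Members varied together from array to array. Over the 16 arrays the mean correlation between pairs of the 39 members measured on all of them was 0.26, and 0.16 after mouse and channel effects were removed. All named genes had 0.0039 and 0.0064. The mean was 0.40 among small subunit proteins and 0.22 among large subunit proteins. Oxidative phosphorylation genes had 0.24 before and 0.27 after removal, mitochondrial ribosomal proteins 0.064 and translation factors 0.013. The arrays share W5 and each mouse has 4 of them, so these values describe the arrays. Within a mouse, the profile of the members over the 49 genes correlated between orientations at -0.17, -0.27, -0.18 and 0.035 in W1 to W4. Centred on the mean of the mice in each orientation, it correlated at 0.24, -0.023, 0.10 and 0.35; genes are not independent replicates here.

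The channel term measures what part of the deposited ratio kept its sign when the channels were swapped. Limma called it for 7 of 49 members (14.3%) at an adjusted p under 0.05, beside 12.5% of all probes. Rps2 had the largest of those above 0, 0.21 ± 0.039 (adjusted p = 0.00486), followed by Rpl4 at 0.18, Rpl15 at 0.16, Rps19bp1 at 0.15 and Rpl8 at 0.13. Rpl7 lay on the other side at -0.22 ± 0.055 (adjusted p = 0.0178), as did Rpl32 at -0.13. In Rpl15, the arrays with the mouse in channel 1 read from 0.053 to 0.42 and the others from -0.33 to 0.29. The count lay between 2 and 3 when 1 mouse was left out, while the count over all 15715 probes went from 1959 to between 658 and 943. The channel term of the other Rplp2 probe was also called, at -0.18 (adjusted p = 0.0173), while that of the probe used was 0.0072. Of the 49 terms 36 were above 0, beside 49.1% over all probes.

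**Figure D5:**
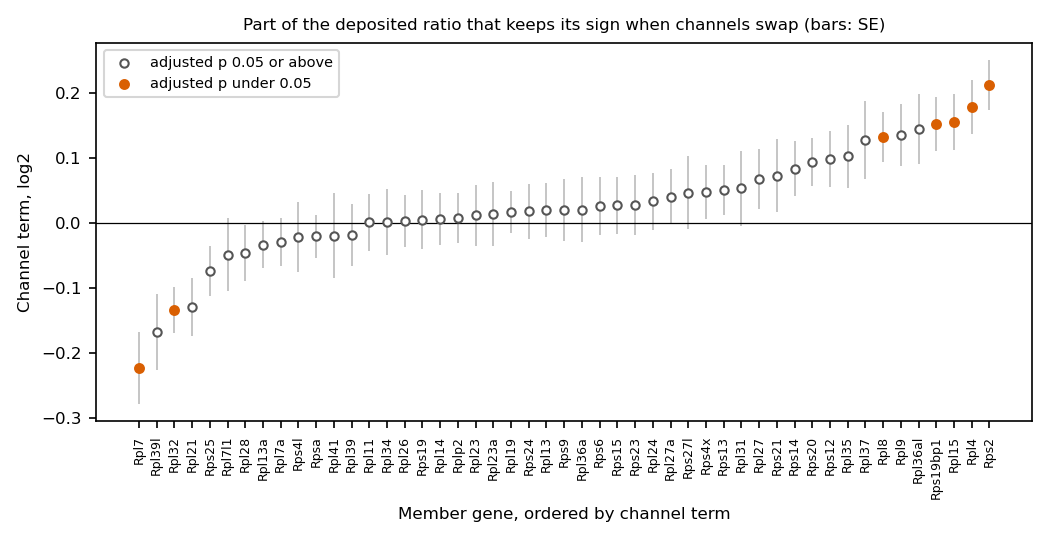
Channel term (log2, bars for the SE) of each of the 49 members in rising order, filled where limma's adjusted p is under 0.05. The 7 filled members reach from Rpl7 at -0.22 to Rps2 at 0.21, while most members lie within 0.1 of 0.

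Genes that make, control or sense ribosomes were measured alongside, from lists that overlap by single genes. Of 65 ribosome biogenesis genes limma called 1 in the 5-kidney test, beside 4.00% of all probes. This was Nop10, a small protein of the particles that guide pseudouridylation of ribosomal RNA, at -0.086, -0.14, -0.66 and -0.30 in W1 to W4, each ± 0.10 (adjusted p = 0.00346). None of 9 RNA polymerase I genes and none of 20 other genes with terminal oligopyrimidine mRNAs was called. In each of these lists 2 genes had an unadjusted p under 0.05, beside 17.9% of all probes. The 20 oligopyrimidine genes had a mean of 0.069 in W4, with 15 on the plus side beside 51.3% of all probes, and of 0.0090 in W1. Their array means were -0.029 on W4.1, 0.074 on W4.2, 0.014 on W4.3 and 0.22 on W4.4. Another list held 26 genes of mTOR signalling and of the La-related proteins, together with the transcription factors Gabpa, Max and Yy1. Of these 26 genes, 1 was called (3.85%, beside 4.00% of all probes). This was Larp4b, an RNA-binding protein that stabilises mRNAs, at 0.31, 0.28, 0.25 and 0.54 in W1 to W4, each ± 0.13 (limma, adjusted p = 0.0219).

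Of 9 genes of the nucleolar stress and Trp53 response, limma called 2 in the 5-kidney test (22.2%), beside 4.00% of all probes. Cdkn1a, the cyclin-dependent kinase inhibitor induced by Trp53, lay in W1 to W4 at -0.53 ± 0.10, -0.45 ± 0.085, 0.041 ± 0.085 and -0.26 ± 0.085 (adjusted p = 0.00150). Ccng1, another Trp53 target, lay at 0.26, 0.013, 0.34 and 0.11, each ± 0.077 (adjusted p = 0.0225). These 2 genes thus lay on opposite sides of W5 in W1.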

How the data were processed

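RNA was compared on 16 two-colour arrays. Per the labels, the authors subtracted background from mean intensities and normalised each array so that its median ratio was 1. What they deposited is 1 log2 ratio per probe and array. The log base was read from the values themselves: on each array 1.48% to 5.01% of them were, to within 2e-06, log2 of 1 whole number over another (none above 12), against at most 0.0288% for natural logs. The sources used here name neither the dye of a channel, nor the numerator, nor the filter on spots, and record no other step, so dye bias remains in single arrays.

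The sign was turned on arrays with W5 in channel 1. With limma 3.58.1 in R 4.3.3, lmFit and eBayes fitted 4 mouse coefficients and a channel term to the 15715 probes that each mouse had measured on 3 or 4 arrays. Missing values were left out of the fit. Moderated F tests covered the 5 kidneys and W1 to W4, and two-sided moderated tests the 10 pairs and the channel term. W5 was set against its littermates by testing the 4 mouse means against 0. Benjamini-Hochberg adjustment ran over all probes within each question, and a call needed an adjusted p under 0.05. The fit was tested on simulated arrays. For arrays, their number limits the precision.

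Members, gene lists and the comparisons stressed were chosen with earlier results of these data known. Named members were those called in any test, those with the 8 largest and 4 smallest ranges, the 2 farthest in each kidney, the 5 largest channel terms, the 3 largest and 3 smallest technical SDs, all paralogues, Rps19bp1, Rplp2, Rpsa, Rps6, and members whose probes differed in call. Outside the members, list genes called in the 5-kidney test were named. Rps25, Rps20, Rps21, Rpl23 and Rps13 were named after their values were seen. Alternatives left out each array or mouse in turn, used 1 orientation, and changed the filter, scaling, weights, channel term and probe choice. Probes were named from the platform's annotation: 11723 had 1 symbol, 806 several and 7676 are unnamed here. Promoter sequences are from RefSeq (GRCm38.p6).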

Additional observations from a re-analysis of the deposited data

Results flagged for a closer look

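The named members and the mean of all members were examined for 1 array of a mouse far from the other 3, in 94 groups of 4 arrays with a full set of values. In 1 of these the lowest array stood apart: Rpl26 read -0.27 on W1.2, while the other arrays of W1 read between -0.081 and -0.046. Its gap to the nearest was 0.843 of the range of the group, past Dixon's critical value for 4 samples. Chance alone gives such a gap in about 5% of groups. Rpl26 was called in no comparison with this array included.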

How the results depend on the processing

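Calls were recomputed under 31 to 36 alternatives, depending on the test. The counts of members called in the 5-kidney test and among W1 to W4, both 0, stayed 0 under the 18 alternatives other than leaving out 1 array, and lay between 0 and 1 when an array was left out. The W5 test stayed at 0 under all 36. The count over the pairs, also 0, became 1 with probes on all 16 arrays, 1 with a common spread of the arrays, 1 with array weights, 1 with 1 probe per named gene and 2 with arrays that have the mouse in channel 1, and lay between 0 and 4 with an array left out. The 7 channel calls became 2 without W1, 2 without W2, 2 without W3 and 3 without W4, where 658, 720, 734 and 943 of 15715 probes were called in place of 1959. They became 9 with a common spread of the arrays and 9 with array weights, and lay between 4 and 8 with an array left out. The cause was not tested. The profile over the mice turned for Rpl15 (range 0.12) and Rpl41 (0.14) with W5 in channel 1 only, for Rpl7 (0.26) and Rps2 (0.26) with the mouse in channel 1 only, and for Rplp2 (0.079) with its probes averaged; none of these 5 was called in the 5-kidney test before or after. The mean of the members kept its side in W1, W3 and W4 under all alternatives run, and in W4 it lay between 0.079 and 0.19 with an array left out; in W2 it lay on both sides.

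With the array number as a replicate block, 0 members were called in the 5-kidney test and 7 for the channel term, and no other count of calls changed. The numbers were not taken to pair the arrays: residuals of same-numbered arrays correlated between -0.27 and 0.19 over 24 pairs, 2 of them over 0.1, and 0 arrays correlated best with their own number. Each kidney is 1 animal and the arrays are repeats, so differences between mice cannot be told apart from differences between single extracts.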

Other observations

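Probes listed with a ribosomal protein and other genes were kept out of the members, since they name no single gene. Of 35 such probes 30 were tested. None was called by limma in the 5-kidney test, where 4.00% of all probes were. At an unadjusted p under 0.05 there were 5 (16.7%), beside 17.9% of all probes. The means of the 30 in W1 to W4 were -0.023, 0.074, 0.038 and 0.15. On the plus side lay 10, 24, 22 and 28 of the 30 in W1 to W4, beside 46.6%, 49.9%, 49.7% and 51.3% of all probes. They were measured on the same arrays as the members, including W4.1 and W4.4. Their mean correlation between pairs over the 16 arrays was 0.17, for the 25 measured on all of them.

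Of the kidney markers measured, limma called Aqp1 among 6 of the proximal tubule in the 5-kidney test, beside 4.00% of all probes. It also called Aqp2 among 3 of the collecting duct and loop of Henle, and Podxl among 2 of the glomerulus. Aqp1, a water channel of the proximal tubule, lay at -0.29, 0.17, -0.22 and -0.30 in W1 to W4, each ± 0.082 (adjusted p = 0.0153). Of the 6 proximal tubule genes, 3, 4, 1 and 2 lay on the plus side in W1 to W4. Aqp2, the vasopressin-regulated water channel of the collecting duct, lay at -0.36, 0.054, -0.13 and -0.54, each ± 0.10 (adjusted p = 0.00879). In the same list Scnn1a lay between -0.0066 and 0.014, and Umod at -0.032, -0.16, 0.058 and -0.37. Neither was called. Podxl, a surface protein of podocytes that endothelium also carries, lay at 0.40, 0.68, 0.039 and 0.47, each ± 0.084 (adjusted p = 3.86e-05). Synpo, the other glomerular gene, lay on the minus side at -0.24, -0.053, -0.11 and -0.15 (limma, adjusted p = 0.436). Among 6 endothelial markers limma called 3. Esm1 reached 0.74 ± 0.078 in W4 (adjusted p = 1.45e-05). Emcn lay at 0.51 in W2 and 0.59 in W4, and Egfl7 at 0.45 in W2 and 0.26 in W4. Flt1, Tie1 and Eng were not called and lay at 0.17, 0.062 and 0.16 in W4. Of 4 adipocyte genes limma called 3. Fabp4 lay at -0.47, -0.67, -0.64 and -0.31 in W1 to W4 (adjusted p = 3.80e-05). Car3 lay at -0.084, -0.34, -0.35 and -0.53 (adjusted p = 0.00145), and Cidec at -0.37, -0.36, -0.68 and -0.85 (adjusted p = 0.00219). Retn was not called. Neither of the 2 red blood cell genes and neither of the 2 adrenal genes was called. Of the adrenal genes 1 had an unadjusted p under 0.05, beside 17.9% of all probes.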
